A study of Mus musculus with 8 samples.

Results

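The H3K9me3 ChIP-seq libraries of Setdb1-ablated mouse embryonic stem (ES) cells at T=6d were examined, 3 of the 8 libraries of the series. They were chosen by the time point in their labels and differ in the antibody used to precipitate the chromatin, with 1 library for each antibody. The first antibody, a gift similar to Upstate/Millipore lot 4861, is called the Upstate-type antibody. The others are lots 58206 and 638466 of the Abcam antibody Ab8898. JM8 ES cells of the C57BL/6N strain, in which Cre is expressed from Rosa26 as CreERT2, were treated for 48 h with 0.8 μM 4′OHT (4′hydroxytamoxifen), and T=6d is 6 days after the start of this treatment. In the paper the Setdb1 genotype is tm1c/tm2 before and tm1d/tm2 after treatment. In the labels it is tm1a/tm2 before and tm1c/tm2 after. Both give the tm2 allele to the cells at T=0 as well. Control cells (tm1c/+) were not analysed here, and the labels do not say how many clones or cultures stand behind a library. The T=0 libraries of the same antibodies and the T=4d library of the Upstate-type antibody are given beside the T=6d libraries where they bear on a result.

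Setdb1 is a histone methyltransferase that places trimethyl groups on lysine 9 of histone H3. In ES cells it is brought to DNA largely by KRAB zinc finger proteins and the co-repressor Trim28, and it silences endogenous retroviruses, imprinted regions and some genes. Related enzymes, Suv39h1 and Suv39h2, place the same mark at the satellite repeats around centromeres. H3K9me3 can thus be present in cells that lack Setdb1. An antibody raised against H3K9me3 reports this mark together with whatever else it binds, and preparations of a polyclonal antibody can differ in this respect. The ablation of Setdb1 was not checked here, because H3K9me3 tags do not report its transcript.

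The deposited files list intervals of 300 bp, 1 for each tag. The Upstate-type library holds 6887819 tags, that of lot 58206 holds 8503927 and that of lot 638466 holds 12194174, and the T=0 library of each antibody holds the same number as its T=6d library. Tags were counted in 5-kb windows of chromosomes 1 to 19 (mm9). The median over the 474385 windows with a tag in any library was 10, 16 and 25 tags at T=6d. The level of a window is its number of tags divided by the median of its own library, and a window at 3 or more times that median is called enriched. Regions carry no gene, exon or intron names, since no annotation in mm9 was used, and are named by position.

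The 3 libraries showed very different amounts of enriched chromatin at T=6d. With the Upstate-type antibody 40128 windows were enriched (8.46% of windows), and they held 35.6% of the tags. With lot 58206 there were 11537 enriched windows (2.43%) with 11.1% of the tags, and with lot 638466 there were 110 (0.0232%) with 0.236% of the tags. The order was the inverse of that of the library sizes. When all libraries were thinned at random to the size of the smallest, the numbers were 40128, 11515 and 122.

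At T=0, 41041 windows were enriched with the Upstate-type antibody, and 6103 and 555 with lots 58206 and 638466. The T=6d library thus had fewer enriched windows than the T=0 library with the Upstate-type antibody and lot 638466, and more with lot 58206, but these directions partly depended on the limit. At 2 times the median, the Upstate-type antibody had 68650 windows at T=6d and 67998 at T=0, and lot 58206 had 21978 and 23379. At 5 times, the Upstate-type antibody had 21517 and 20582, and lot 58206 had 4272 and 655. Lot 638466 had fewer windows at T=6d at both limits. With 1 library per antibody and time point, these differences have no replicate check. The 1% of windows with most tags held 8.20% of the tags with the Upstate-type antibody, and 6.10% and 2.19% with lots 58206 and 638466 at T=6d, against 8.73%, 3.91% and 2.67% at T=0.

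**Figure D1:**
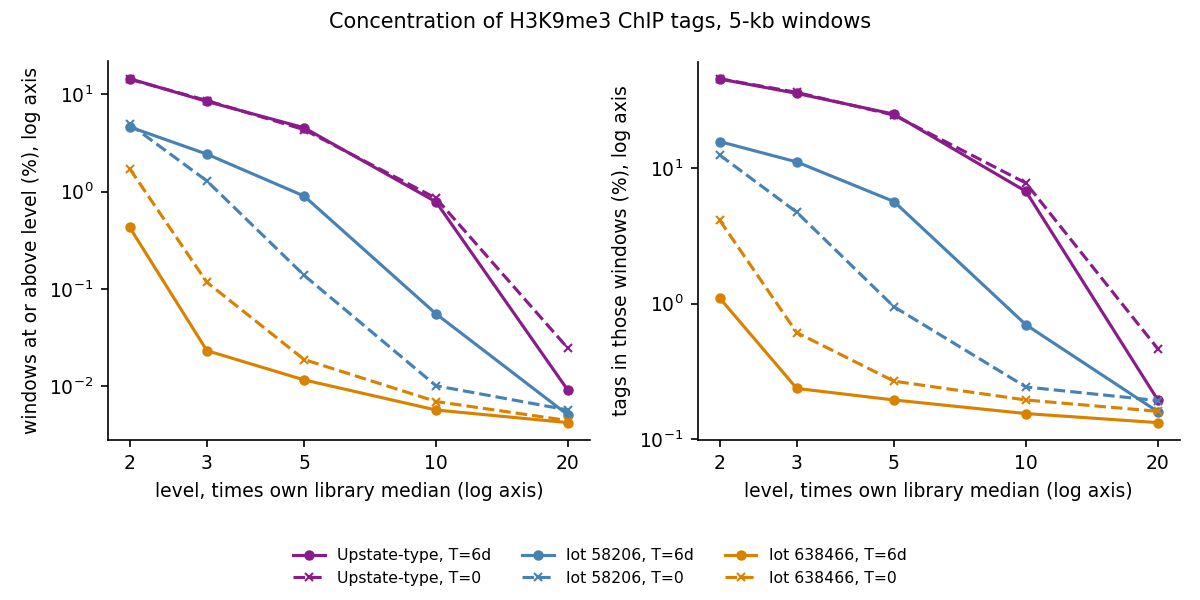
Share of 5-kb windows (left, log axis) and of tags (right, log axis) at or above a given level, in times the median of the own library (log axis), for the 3 antibodies at T=6d (solid) and T=0 (dashed). At 3 times the median, the T=6d curves pass through 8.46% (Upstate-type), 2.43% (lot 58206) and 0.0232% of windows (lot 638466).

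The antibodies for the most part enriched different windows. Of the 40128 windows of the Upstate-type antibody, 2058 were also enriched with lot 58206. This is 5.13% of the former, against 2.43% of all windows enriched with lot 58206. It is 17.8% of the latter, against 8.46% of all windows enriched with the Upstate-type antibody. The 110 windows of lot 638466 were mostly shared, 90 of them (81.8%) with the Upstate-type antibody and 91 (82.7%) with lot 58206. In all, 49617 windows were enriched with at least 1 antibody. Of these, 38061 were enriched with the Upstate-type antibody alone, 9469 with lot 58206 alone, 10 with lot 638466 alone, and 81 with all 3.

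Windows chosen with the Upstate-type antibody were near the library median with the Abcam lots. In the 40128 windows the median level was 5.20 times the median with the Upstate-type antibody, and 0.938 and 1.08 with lots 58206 and 638466. In the 11537 windows of lot 58206 it was 4.44 with that lot, 1.0 with the Upstate-type antibody and 1.12 with lot 638466. Here the level of the antibody that chose the windows follows from the choice, and those of the other antibodies do not.

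Because the libraries differ in how far tags are concentrated, lists of equal size were compared too. Of the 4744 windows that make up the top 1% of each library, the Upstate-type antibody and lot 58206 shared 3.14% at T=6d, the Upstate-type antibody and lot 638466 shared 2.40%, and the lots shared 2.59%. At T=0 the same pairs shared 7.86%, 8.54% and 23.2%. By definition, each list holds 1% of all windows. The 99th percentile of the levels was 9.4, 4.75 and 1.84 times the median at T=6d with the Upstate-type antibody and lots 58206 and 638466. At T=0 it was 9.5, 3.19 and 2.12 times. Most windows in the lists of lot 638466 were therefore not enriched. A small overlap with such a list does not show that the antibodies bound different chromatin. Libraries of the same antibody had far more in common. T=6d and T=0 shared 65.8% of the top windows with the Upstate-type antibody and 62.2% with lot 58206, although 11.4% with lot 638466. The T=6d and T=4d libraries of the Upstate-type antibody shared 72.3%.

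**Figure D2:**
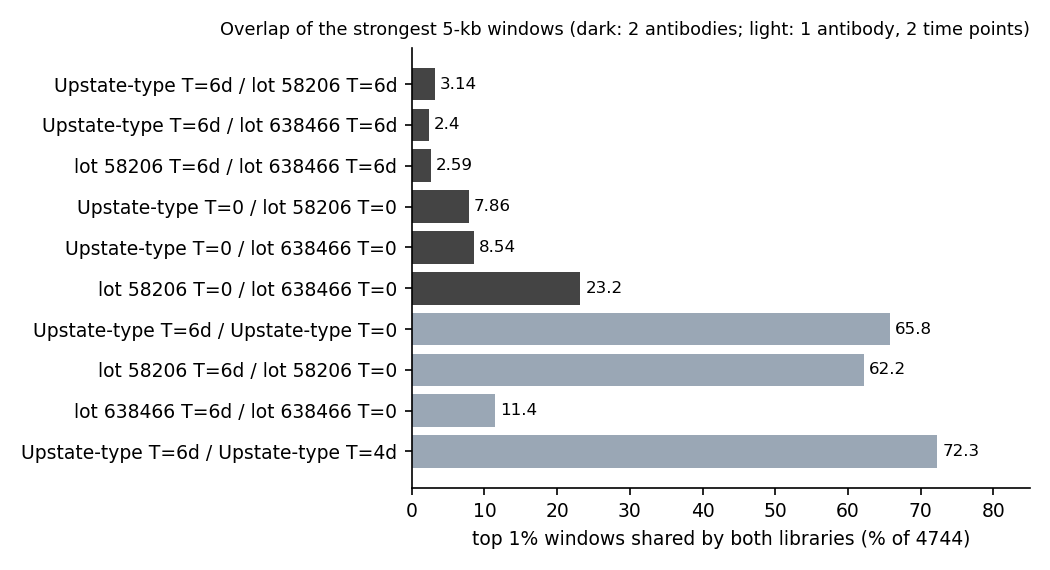
Share of the 4744 windows in the top 1% of 1 library that are also in the top 1% of another (horizontal axis, percent), for pairs of antibodies at 1 time point (dark bars) and for 1 antibody at a pair of time points (light bars). At T=6d the pairs of antibodies lie between 2.40% and 3.14%, and the lots share 23.2% at T=0.

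Across all 474385 windows, Pearson's r of the levels at T=6d was 0.130 for the Upstate-type antibody and lot 58206, 0.244 for the Upstate-type antibody and lot 638466, and 0.445 for the lots. Without windows above 20 times the median it was 0.0917, 0.203 and 0.365. At T=0 the values over all windows were 0.332, 0.372 and 0.728. For T=6d and T=4d of the Upstate-type antibody r was 0.920. For T=6d and T=0 it was 0.858 with the Upstate-type antibody, and 0.710 and 0.687 with lots 58206 and 638466, which is below the value for the lots at T=0. These correlations are across windows, which are not independent, and which share mappability and base composition.

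The enriched chromatin also differed in shape. With the Upstate-type antibody, neighbouring enriched windows joined into 11232 regions with a median of 10.0 kb. Of these, 844 regions reached 50 kb and held 29.1% of the enriched windows. With lot 58206 there were 10051 regions with a median of 5.00 kb, and 87.8% were single windows. With lot 638466 there were 56 regions, 75% of them single windows.

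The longest region of the Upstate-type antibody at T=6d covered 245 kb of chromosome 8 (26715001 to 26960000). Its mean level was 9.72 times the median with the Upstate-type antibody, and 2.49 and 2.00 with lots 58206 and 638466, against 9.65, 2.70 and 2.43 at T=0. The longest of lot 638466 covered 105 kb of chromosome 1 (90105001 to 90210000), with levels of 9.60, 6.84 and 5.80 in the same order and of 9.04, 6.24 and 6.27 at T=0. The longest of lot 58206 covered 85 kb of chromosome 11 (3020001 to 3105000), where the levels were 27.4, 29.7 and 28.5, against 26.3, 30.7 and 29.5 at T=0. The latter regions were thus high with every antibody at both time points, while the domain on chromosome 8 was less far above the median with the lots than with the Upstate-type antibody. Input was not analysed, so how much of the signal on chromosomes 1 and 11 stands for H3K9me3 was not tested.

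At finer scale, the signal of lot 58206 was a narrow peak that fell in a trough of the Upstate-type signal. Each window was centred on the 500-bp bin with most tags in the T=0 library of the antibody that chose it, so the T=6d tags took no part in placing the centre. They did choose the windows, so a raised level of the antibody that chose them follows from the choice. In the windows of lot 58206, its mean level at T=6d was 14.6 times the median at the centre and 1.34 times at 10 kb. In the same windows the Upstate-type level was 0.967 times the median at the centre and 2.74 times at 10 kb, and still 2.55 times at the ends of the profile near 25 kb. Lot 638466 gave 1.3 times at the centre and 1.13 times at 10 kb. The trough was also seen at T=0, with 1.31 times the median at the centre and 2.87 times at 10 kb with the Upstate-type antibody, where the peak of lot 58206 was 8.79 times the median. This T=0 peak is raised by centring on the highest bins of the same library. Over all windows, the Upstate-type T=0 library centred on its own highest bins stood at 3.64 times the median.

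More of the windows enriched with lot 58206 lay beside those of the Upstate-type antibody than inside them. Of the 11537 windows, 6868 (59.5%) were within 10 kb of an Upstate-type window or inside one, against 15.5% of all windows. Those near but not inside numbered 4810 (41.7%, against 7.08% of all windows), and 2058 were inside (17.8%, against 8.46% of all windows). In the windows of the Upstate-type antibody, its own mean level was 7.72 times the median at the centre, 4.47 times at 10 kb and 3.40 times near 25 kb. Lot 58206 had a shallow dip there, with 1.12 times at the centre and 1.35 times at 10 kb, and lot 638466 a small peak, with 1.26 and 1.08 times. With the same centring over all 474385 windows, lot 638466 had 1.13 and 1.0 times, and lot 58206 1.13 and 1.09 times. A small peak of lot 638466 was thus not particular to the Upstate-type windows.

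**Figure D3:**
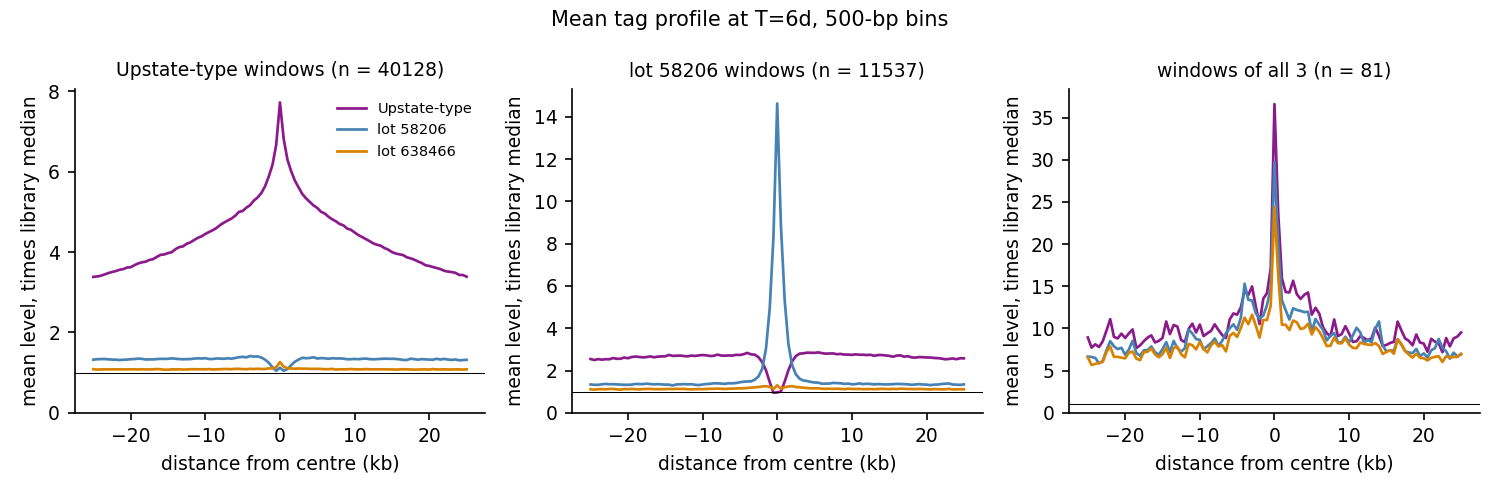
Mean tag level at T=6d (vertical axis, in times the median of the own library) against the distance from the centre in kb, in 500-bp bins, around the windows enriched with the Upstate-type antibody (left, n = 40128), lot 58206 (middle, n = 11537) and all 3 (right, n = 81; centred with the Upstate-type antibody at T=0). In the middle panel lot 58206 peaks at 14.6 times the median where the Upstate-type antibody is at 0.967 times.

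Per chromosome, the Upstate-type antibody had between 12.3 (chromosome 3) and 26.7 (chromosome 11) enriched windows per Mb at T=6d, and lot 58206 between 3.40 (chromosome 14) and 8.33 (chromosome 11). Despite the small overlap of windows, these numbers followed each other with r = 0.904 across 19 chromosomes (Spearman's rho = 0.830). They also followed the number of protein-coding genes per Mb, with r = 0.719 for the Upstate-type antibody (rho = 0.742) and 0.871 for lot 58206 (rho = 0.883), as counted per whole chromosome in the GRCm38 annotation. At T=0 the values of r were 0.743 and 0.685. These are descriptions across 19 chromosomes that share base composition and mappability. For lot 638466, with at most 0.144 windows per Mb, r was 0.345.

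**Figure D4:**
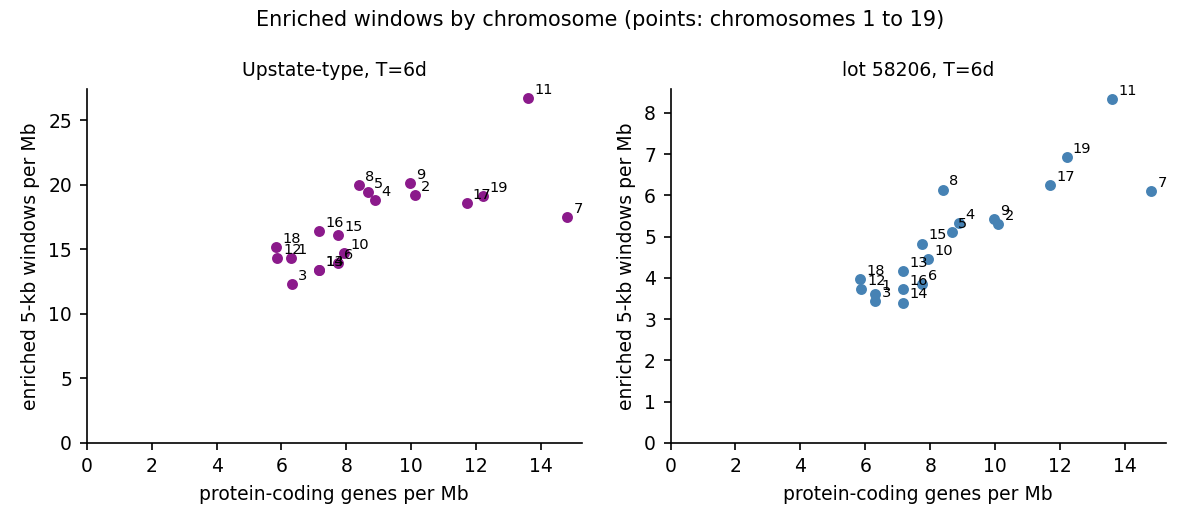
Enriched 5-kb windows per Mb at T=6d (vertical axis) against protein-coding genes per Mb (horizontal axis, GRCm38 gene counts) for chromosomes 1 to 19, each a numbered point, with the Upstate-type antibody (left) and lot 58206 (right). Chromosome 11 is the highest in both, with 26.7 and 8.33 windows per Mb.

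The 81 windows enriched with all 3 antibodies at T=6d formed 34 regions on 15 chromosomes. They held 0.203% of the tags with the Upstate-type antibody, and 0.234% and 0.215% with lots 58206 and 638466. Of these windows, 28 (34.6%) lay in the first Mb of a chromosome that holds tags, next to the centromere, against 0.774% of all windows. The share was 1.23% for the windows of the Upstate-type antibody and 1.24% for those of lot 58206. It was 28.2% for the 110 windows of lot 638466, which include these 81. Chromosome 1 held 21 of them, chromosome 11 held 17, and chromosomes 5, 14, 16 and 19 held 0.

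Among the 81 windows, 70 were also enriched with all 3 antibodies at T=0. Their levels at T=6d were lower than at T=0 in 37 windows with the Upstate-type antibody, and 38 and 35 with lots 58206 and 638466. The median levels were 10.0, 8.06 and 6.56 times the median at T=6d and 9.80, 7.75 and 7.40 at T=0. Because the windows were chosen at T=6d, these values describe them and do not test a change.

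The 6 regions with the highest lowest level among the 3 antibodies were led by chromosome 11 from 3025001 to 3100000. Its strongest window held 403 tags at T=6d with the Upstate-type antibody (95% exact Poisson interval 365 to 444), and 665 (615 to 718) and 1002 (941 to 1070) with lots 58206 and 638466, or 40.3, 41.6 and 40.1 times the medians. At T=0 it held 314, 601 and 905 tags. This window had nearly the same level with each antibody, and these intervals, like all others here, cover counting error only. Without input, how far the 6 regions gather tags in any library was not tested.

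The second of these regions, on chromosome 2 from 98500001 to 98510000, held 644, 796 and 852 tags in its strongest window, or 64.4, 49.8 and 34.1 times the medians. The third, on chromosome 13 from 120275001 to 120285000, held 872, 355 and 618 tags, or 87.2, 22.2 and 24.7 times. Here the Upstate-type level stood well above that of both lots. At T=0 it held 744, 622 and 838 tags, so that both lots gave fewer at T=6d and the Upstate-type antibody more. On chromosome 9, the region from 3015001 to 3040000 had levels of 43.5, 33.3 and 21.3 times and that from 3000001 to 3010000 levels of 36.2, 23.9 and 16.3 times. A single window on chromosome 15 (74915001 to 74920000) had 198, 383 and 502 tags, or 19.8, 23.9 and 20.1 times the medians. It stood apart in that all antibodies gave more tags at T=0 (467, 540 and 650).

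To describe how much H3K9me3 an antibody detected where the others had shown it before treatment, windows were chosen for each antibody on the T=0 libraries of both other antibodies. Of 462 windows chosen in this way, 448 (97.0%) were enriched with the Upstate-type antibody at T=0 and 213 (46.1%, 95% Clopper-Pearson interval 41.5 to 50.8%) at T=6d. With lot 58206, 448 of 519 windows (86.3%) were enriched at T=0 and 116 (22.4%, 18.8 to 26.2%) at T=6d. With lot 638466, 448 of 2353 (19%) were enriched at T=0 and 85 (3.61%, 2.90 to 4.45%) at T=6d. The level was lower at T=6d in 91.1%, 88.1% and 87.8% of these windows. Tags above the library median, summed over the windows, were 45.1%, 50.1% and 37.1% of those at T=0. The median levels of the windows at T=0 were 8.0, 4.31 and 1.92 times the median, and the 3 antibodies were measured in different sets of windows.

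The 448 windows common to these sets were enriched with all 3 antibodies at T=0. At T=6d, 207 of them (46.2%) were enriched with no antibody, 122 (27.2%) with the Upstate-type antibody alone, 23 (5.13%) with lot 58206 alone, and 70 (15.6%) with all 3. Their median levels at T=6d were 2.60 with the Upstate-type antibody, and 1.31 and 1.32 with lots 58206 and 638466, against 8.40, 4.62 and 3.64 at T=0. As these windows were chosen on the T=0 libraries themselves, part of each difference can come from the choice.

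At the loci boxed in the study, 3 boxes had little H3K9me3 above their surroundings at T=6d with any antibody. H19 is an imprinted non-coding RNA gene, Olfr901 an olfactory receptor gene, and Cdh3 encodes P-cadherin. The limits of the boxes were read from the axes of the study's plot to the nearest kb. Each box was compared with 50 kb on either side in the same library by a two-sided exact binomial test, adjusted over the 12 tests at T=6d by the Benjamini-Hochberg procedure. At T=6d, 3 of the 12 tests were above the flanks, all in the control box, and 4 were below, while 9 were above at T=0.

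The H19 box (chromosome 7, 149764001 to 149770000) held 13 tags with the Upstate-type antibody, and 23 and 43 with lots 58206 and 638466. Per kb this was 1.16 times the flanks (95% exact interval 0.606 to 2.03), 0.883 times (0.554 to 1.34) and 1.11 times (0.793 to 1.51). No antibody passed the exact test (adjusted P = 0.591, 0.685 and 0.591), and the intervals allow up to a 2.03-fold excess. At T=0 the box stood 4.44, 2.76 and 2.71 times above its flanks. No pair of antibodies passed the test for a difference in the ratio of box to flanks at T=6d (Fisher's exact test, adjusted P between 0.501 and 0.869).

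The Olfr901 box (chromosome 9, 38216001 to 38236000) held 17 tags with the Upstate-type antibody, and 51 and 65 with lots 58206 and 638466. The ratio to the flanks was 0.528 (0.300 to 0.872), 1.15 (0.830 to 1.56) and 0.795 (0.602 to 1.03), against 4.55, 2.82 and 2.01 at T=0. The Upstate-type antibody was below the flanks (exact binomial test, adjusted P = 0.0150), but not with flanks of 100 kb (adjusted P = 0.0828). Its ratio was lower than that of lot 58206 (Fisher's exact test, adjusted P = 0.0203).

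The Cdh3 box (chromosome 8, 108962001 to 109031000) held 76, 196 and 318 tags. It lay below its flanks with every antibody, at 0.218 times (0.169 to 0.277) with the Upstate-type antibody, and 0.521 times (0.440 to 0.615) and 0.696 times (0.607 to 0.797) with lots 58206 and 638466. All 3 passed the exact test (adjusted P = 1.64e-47, 7.64e-16 and 1.53e-07), and all 3 pairs of antibodies differed (Fisher's exact test, adjusted P = 7.96e-09, 2.10e-17 and 0.0187). The box was already below its flanks at T=0, at 0.508, 0.860 and 0.736 times. It then held 247, 334 and 491 tags. Against the genome-wide median of the library, the box stood at 1.79, 1.51 and 1.42 times at T=0. At T=6d it stood at 0.551, 0.888 and 0.922 times. The flanks also held fewer tags at T=6d than at T=0 with every antibody, so the ratio to the flanks does not show the whole difference in the box.

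The control box (chromosome 4, 3015001 to 3020000) held 62, 72 and 100 tags at T=6d. It stood 13.9 times (9.56 to 20.2), 6.83 times (5.06 to 9.15) and 5.78 times (4.52 to 7.34) above its flanks, which cover 65 kb because the tags of the chromosome begin near the box. All passed the exact test (adjusted P = 6.91e-38, 6.75e-30 and 4.27e-36). At T=0 the ratios were 11.8, 7.00 and 4.12. The Upstate-type ratio at T=6d exceeded that of both lots (Fisher's exact test, adjusted P = 0.00747 and 0.000250), and the lots did not pass the test (adjusted P = 0.501, ratio of their ratios 1.18). Over all boxes 6 of the 12 pairs of antibodies differed.

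**Figure D5:**
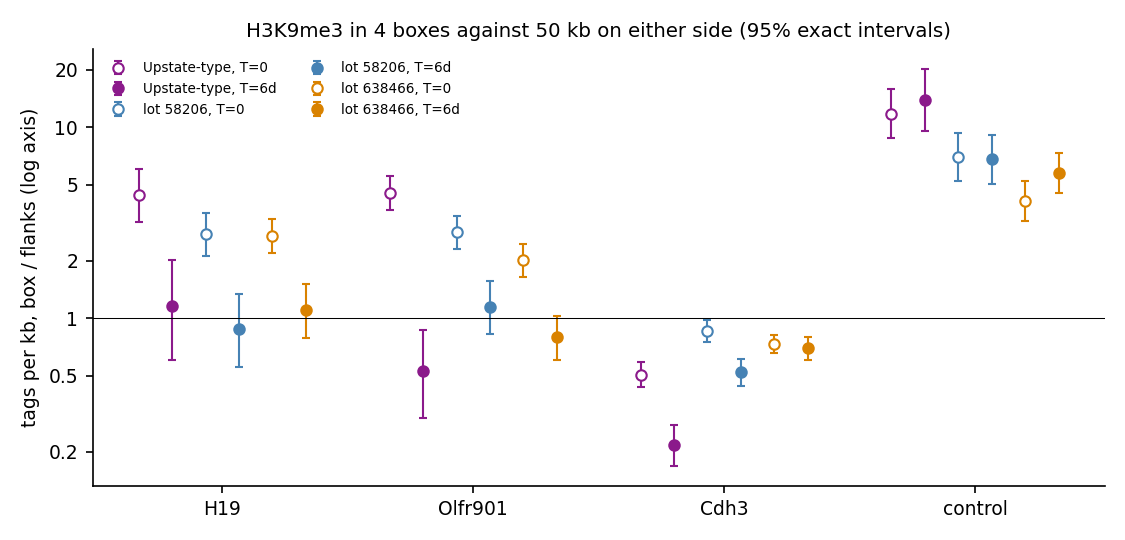
Tags per kb in each box divided by those in 50 kb on either side (vertical axis, log scale; 65 kb of flanks in all for the control box), with 95% exact intervals, for each antibody at T=0 (open circles) and T=6d (filled circles). At T=6d the control box lies at 13.9, 6.83 and 5.78 times its flanks, and the intervals of H19 include 1 with every antibody.

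The Upstate-type library was then compared window by window with both Abcam lots. In all, 37425 windows had a mean level of 2 or more in the 3 libraries and were tested, and 81.0% of them were enriched with the Upstate-type antibody, and 21.3% and 0.294% with lots 58206 and 638466, so windows entered the test largely through the Upstate-type library. The numbers of windows called in each direction are therefore a description of the windows that passed this filter, and do not show which antibody was higher over the genome. By limma on log2(tags per 1000000 + 0.5), requiring an adjusted P (Benjamini-Hochberg) below 0.05 and more than a 1.5-fold change, 11348 windows were higher with the Upstate-type antibody (30.3% of windows tested) and 11 were lower (0.0294%). All 11348 were enriched with the Upstate-type antibody, and all 11 with lot 58206. The median difference over the tested windows was 1.72 on the log2 scale, and 2.26 when libraries were scaled to background windows. With a filter of 1 time the median its sign turned, to −0.203 over 263946 windows. Then 19803 windows were higher and 7028 lower by limma, and 39347 and 43405 at an unadjusted P below 0.05.

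These calls stand on the threshold. The spread comes from the lots alone, with 1 residual degree of freedom, and the single Upstate-type library was assumed to vary like them. The adjusted P of the named regions was 0.0498 for each. No window was called in either direction with windows of 2 kb, with libraries thinned to equal size or with a pseudocount of 0.25 (limma, 0 higher and 0 lower), although at an unadjusted P below 0.05 there were 49301 higher and 772 lower, 19056 and 51, and 22182 and 403. With all 6 libraries of T=0 and T=6d in the fit, 24799 were higher and 418 lower. In that fit, leaving out the T=6d library of lot 58206 gave 26168 and 154, and leaving out that of lot 638466 gave 25519 and 5245.

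The regions with the largest differences were single windows or pairs. Chromosome 7 from 129220001 to 129225000 held 118 tags with the Upstate-type antibody, and 5 and 11 with lots 58206 and 638466, a log2 difference of 3.84 (standard error 0.69, limma adjusted P = 0.0498). Chromosome 9 from 15115001 to 15120000 held 205, 13 and 23 tags (3.78), and chromosome 2 from 144075001 to 144080000 held 161, 4 and 32 (3.78). In each of them the lots were far below the Upstate-type antibody, and at or below their genome-wide medians except for 32 tags with lot 638466 on chromosome 2. Chromosome 3 from 41410001 to 41420000 (2 windows) held 379, 26 and 42 tags (3.74), and chromosome 11 from 106850001 to 106855000 held 150, 8 and 19 (3.69). These regions had similar numbers with the Upstate-type antibody at T=0, from 85 tags on chromosome 7 to 366 on chromosome 3. Both lots held more tags in them at T=0 than at T=6d. As the regions were chosen for low levels of the lots at T=6d, part of this can come from the choice. At T=0, lot 58206 held from 13 on chromosome 11 to 47 on chromosome 3, and lot 638466 from 26 to 86.

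In the other direction, chromosome 14 from 55730001 to 55735000 held 2 tags with the Upstate-type antibody, and 87 and 51 with lots 58206 and 638466 (log2 difference −3.16, standard error 0.68, limma adjusted P = 0.0498). Chromosome 6 from 38585001 to 38590000 held 3, 88 and 52 tags (−2.94), and chromosome 9 from 53915001 to 53920000 held 3, 78 and 49 (−2.82). Here both lots were above their medians and the Upstate-type antibody was below its own. The next were chromosome 10 from 66995001 to 67000000, with 4, 80 and 63 tags (−2.79), and chromosome 18 from 75120001 to 75125000, with 3, 70 and 48 (−2.73). At T=0 the same 5 regions held between 7 and 9 tags with the Upstate-type antibody, between 44 and 70 with lot 58206, and between 34 and 56 with lot 638466. Differences from T=6d can come in part from the choice of these regions at T=6d.

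Pairs of libraries were also compared on the tags that fell in each window and elsewhere (Fisher's exact test, two-sided), requiring an adjusted P below 0.01 and more than a 1.5-fold change. This compares libraries, not conditions, and the windows are the same 37425, so the excess of calls with the Upstate-type antibody is subject to the same filter. Against lot 58206, 26961 windows were higher with the Upstate-type antibody (72.0% of windows tested) and 6496 with the lot (17.4%). Against lot 638466, 28828 were higher with the Upstate-type antibody (77.0%) and 910 with the lot (2.43%). Between the lots, 8062 were higher with lot 58206 (21.5%) and 297 with lot 638466 (0.794%).

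The same calls were then counted in windows enriched with the antibody that was not in the pair. In the 110 windows of lot 638466, 9 (8.18%) were higher with the Upstate-type antibody and 21 (19.1%) with lot 58206. In the 7985 tested windows of lot 58206, 1859 (23.3%) were higher with the Upstate-type antibody than with lot 638466 and 878 (11.0%) were lower. In the 30322 tested windows of the Upstate-type antibody, 2159 (7.12%) were higher with lot 58206 and 296 (0.976%) with lot 638466. A window where both lots are low could be tested only if the Upstate-type level was high, so the last of these counts follows from the filter. The filter also shaped the counts in the windows of lot 58206. Of its 11537 windows, those with a raised level of another antibody passed more readily. Over all 11537, the median level was 1.0 with the Upstate-type antibody and 1.12 with lot 638466.

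Between the lots, the largest folds were in single windows. Chromosome 11 from 95865001 to 95870000 held 258 tags with lot 58206, 21 with lot 638466 and 12 with the Upstate-type antibody (log2 ratio of the lots 3.79, Fisher's exact test adjusted P = 1.31e-69). At T=0 it held 98, 32 and 11 tags. The Upstate-type antibody was near its median there at both time points. Chromosome 7 from 16895001 to 16900000 held 211, 17 and 25 tags (3.74), chromosome 6 from 113025001 to 113030000 held 171, 13 and 13 (3.72), and chromosome 9 from 56920001 to 56925000 held 212, 19 and 10 (3.63). In all 4 regions lot 638466 and the Upstate-type antibody were near or below their medians, apart from 25 tags of the Upstate-type antibody on chromosome 7.

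In the regions called higher with lot 638466, lot 58206 held few tags. Their high numbers of tags with the Upstate-type antibody follow from the filter on the mean level. Chromosome 13 from 100825001 to 100830000 held 33 tags with lot 638466, 1 with lot 58206 and 98 with the Upstate-type antibody (log2 ratio −2.38, lot 58206 against lot 638466, Fisher's exact test adjusted P = 2.92e-06). Chromosome 5 from 144480001 to 144485000 held 39, 4 and 76 (−1.93), chromosome 2 from 48770001 to 48775000 held 31, 3 and 62 (−1.83), and chromosome 2 from 157830001 to 157835000 held 41, 5 and 50 (−1.83). With lot 638466 these windows were less than 2 times its median, so the difference lay mainly in how far lot 58206 was below its own. At T=0 lot 58206 held between 12 and 33 tags in them.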

How the data were processed

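ChIP-seq tags of 8 H3K9me3 libraries were available, of which the 3 at T=6d are described. Per the labels and the methods of the study, the authors kept tags that map uniquely (mm9), equalised the number of tags between libraries made with an antibody and lengthened each tag to 300 bp. The deposited files list these intervals with no strand and no score. Input was not analysed here.

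Each tag was assigned to the 5-kb window that holds its midpoint, with scipy 1.17.1, pandas 2.3.3 and numpy 2.4.6 under Python 3.11.15. Windows were compared with limma 3.58.1 (eBayes with trend, R 4.3.3). Figures were drawn with matplotlib 3.10.9. Depth is 6887819 to 12194174 tags per library, and intervals (95%) cover counting error only. On simulated tags, the limma comparison recovered most changed windows but called more unchanged windows than its adjusted P allows, so its counts cannot be read at the nominal error rate. Fisher's exact test called few unchanged windows but recovered fewer of the changed ones.

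Samples were grouped by time point and antibody in the labels. Libraries have no biological replicates, so P values measure the spread between antibody preparations or counting error. Named regions were the 4 boxes; the 6 with the highest lowest-of-3 level; the 5 with the largest limma difference in each direction, past its threshold and on the same side of both lots; and the 4 with the largest fold between the lots in each direction. Libraries, regions and rules were chosen with earlier results of these data known. Alternatives were other window sizes, filters, enrichment limits, pseudocounts, flanks, scaling, thinning and sets of libraries. The reference genome at hand was GRCm38, whose coordinates differ from mm9, so no sequence was read and coordinates were not converted. It served only for gene counts of whole chromosomes.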

Additional observations from a re-analysis of the deposited data

Results flagged for a closer look

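The X chromosome took no part in the comparisons, which is why it is listed here. On it, 793 windows of lot 58206 were enriched at T=6d (2.58% of 30776 windows), against 758 at T=0 (2.46%). This difference has no replicate check. With the Upstate-type antibody 2249 were enriched at T=6d and 2358 at T=0, and with lot 638466 there were 78 and 466. Levels here are against the median over the windows of the X chromosome. It was 4, 6 and 10 tags at T=6d with the Upstate-type antibody and lots 58206 and 638466, and 4, 6 and 8 at T=0. With lot 638466 the limit for an enriched window was thus higher at T=6d than at T=0, and its counts are not on the same footing.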

How the results depend on the processing

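The values below are counts of windows, in the order in which the comparisons were given: higher and lower with the Upstate-type antibody by limma (11348 and 11 as reported), then the Fisher counts for the Upstate-type antibody against lot 58206, the Upstate-type antibody against lot 638466, and lot 58206 against lot 638466. Counts within 1.5 times the reported ones are left out. With windows of 2 kb they were 0 and 0 by limma, 58981 and 16004, 58188 with the Upstate-type antibody, and 15823 and 177. With windows of 10 kb, limma gave 512 lower, and Fisher's test 13150 and 2010, 15591 and 332, and 4545 with lot 58206. A filter of 1 time the median gave 19803 and 7028 by limma, with the median log2 difference turning from 1.72 to −0.203, and 17319 with lot 58206, 7654 with lot 638466, and 12213 with lot 58206. A filter of 3 times gave 48 lower by limma, 11192 and 1869, 12637 and 135, and 2889 and 153. Other filters and window sizes change how many windows are tested. Scaling to background windows gave 26046 and 2 by limma, and 117 and 112 with lot 638466. Thinning gave 0 and 0 by limma, and 167 with lot 638466 against lot 58206. Leaving out windows above 20 times the median gave 19 lower by limma, a pseudocount of 0.25 gave 0 and 0, and one of 1 gave 19 lower. The 6-library fit gave 24799 and 418, and shared 11351 of the 11359 windows called. Without either Abcam lot in that fit, 25519 to 26168 were higher and 154 to 5245 lower. Fisher's test was also run with P adjusted over, and calls counted in, only the windows of the antibody not in the pair. In the 110 windows of lot 638466 it called 7 with the Upstate-type antibody and 19 with lot 58206. With P adjusted over all tested windows these were 9 and 21, so the larger count was with lot 58206 either way. The other pairs gave 1664 with the Upstate-type antibody, and 2050 and 131. The causes of the limma losses were not tested.

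Enriched windows (Upstate-type antibody, lot 58206, lot 638466, all 3) numbered 68650, 21978, 2037 and 324 at 2 times the median, 21517, 4272, 55 and 48 at 5 times, 108233, 26351, 504 and 243 at a window size of 2 kb, and 20133, 5027, 45 and 43 at one of 10 kb. Top windows shared were 4.09%, 2.99% and 3.25% for the top 0.5%, and for the lots 3.36% for the top 2%. For the Upstate-type antibody and lot 58206 they were 1.82% at a window size of 2 kb and 5.55% at 10 kb, where the lots shared 3.32%. Shares of the windows chosen on both other antibodies that were enriched at T=6d (46.1%, 22.4% and 3.61% as reported) were 27.6% and 17.3% for the Upstate-type antibody and lot 58206 at 2 times the median, and 73.5%, 59.0% and 13% for the 3 antibodies at 5 times. They were 30.0% and 13% at a window size of 2 kb, 66.0%, 34.9% and 5.48% at 10 kb, 22.4%, 5.94% and 0.214% in windows of either other antibody, and 39.7%, 18% and 2.31% without windows above 20 times the median. Of 24 values at the boxes under other flanks, 23 kept their side of the threshold, and Olfr901 with the Upstate-type antibody did not. The Upstate-type and Abcam libraries were not compared as pairs, since the labels give no pairing between antibodies. The pairing of T=0 with T=6d by antibody and lot was not used in the 6-library fit. At 10 tags per median window, counting error limits the Upstate-type library most.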
